A study of Mus musculus with 6 samples.

Results

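The genes described here are 10 channels, stores and pumps that set the calcium level and the membrane potential of smooth muscle: *Cacna1c*, *Cacna1h*, *Cacnb2*, *Kcnma1*, *Kcnmb1*, *Kcnj8*, *Ryr2*, *Itpr1*, *Atp2a2* and *Pln*. They were chosen by symbol, and each of the 10 symbols matched 1 row of the deposited table of 55426 genes. RNA came from the abdominal aorta of male C57BL/6J mice, as 3 control libraries and 3 libraries of *Prdm16* knockout mice (*Prdm16* SMKO), in which the floxed *Prdm16* gene, encoding a transcriptional regulator, is deleted by *Myh11*-CreERT2. This Cre recombinase is driven by the *Myh11* promoter, is carried on the Y chromosome, acts after tamoxifen, and is known to act in smooth muscle outside the vessel wall too. The study's design gives tamoxifen by gavage in corn oil at 75 mg/kg/day for 5 days to males aged 8 to 10 weeks, with aortas taken 2 weeks later. The controls are described as wild-type mice with *Myh11*-CreERT2, and whether they received tamoxifen or carried floxed alleles is not stated, so effects of these cannot be told apart from those of the deletion. Values are relative transcript levels scaled to a common total (TPM), which are corrected for transcript length, so levels of different genes can be set side by side.

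Arterial smooth muscle contracts when cytosolic calcium rises and myosin light chain kinase is switched on by calmodulin. Calcium enters through voltage-gated channels and is released from the sarcoplasmic reticulum by ryanodine and inositol trisphosphate receptors, and the SERCA pump, which phospholamban holds back, returns it to the store. Potassium channels oppose this entry, since they pull the membrane potential to values at which voltage-gated calcium channels close. The large-conductance BK channel is the classic example in arteries: local calcium release through ryanodine receptors opens it, and its beta-1 subunit makes it more sensitive to calcium.

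All 10 genes were expressed in every library, and 9 of the 10 had a lower mean log2 level in *Prdm16* SMKO than in control aortas, by margins of which none passed the test across all genes. The largest difference was that of *Kcnmb1*, the beta-1 subunit of the BK channel, which averaged 68.1 ± 17.8 TPM in the control and 41.5 ± 8.72 TPM in the *Prdm16* SMKO aortas (SD, n = 3 each). *Atp2a2*, the SERCA pump, had nearly equal means of 177 ± 47.4 and 177 ± 16.7 TPM (SD, n = 3 each). Expression was compared on log2(TPM + 0.5) by limma's moderated test in the 15775 genes whose mean reached 0.5 TPM, and a gene was called at a Benjamini-Hochberg adjusted p under 0.05. All 10 genes passed that minimum, and 0 of them was called, where 0.355% of all genes tested were called, 0.184% as higher and 0.171% as lower. By the unadjusted p of the same test 1 of the 10, *Kcnmb1*, was under 0.05, against 8.74% of all genes in either direction and 3.85% in the lower direction. The median log2 fold change of the 10 genes was −0.29, beside 0.02 over all genes tested, and 45.8% of all genes were below 0. That median rested partly on single libraries: without control replicate 2 it was −0.079, with 8 of the 10 genes below 0 and a median of 0.11 over all genes. Without *Prdm16* SMKO replicate 3 it was −0.20, again with 8 of the 10 below 0, and 0.063 over all genes. Without control replicate 1 or 3 it was −0.28 or −0.39, beside 0.033 or −0.069 over all genes. Without *Prdm16* SMKO replicate 1 or 2 it was −0.27 or −0.35, beside −0.011 or 0.00012. All 10 genes were below 0 in these last fits. The groups overlapped in 8 of the 10 genes.

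**Figure D1:**
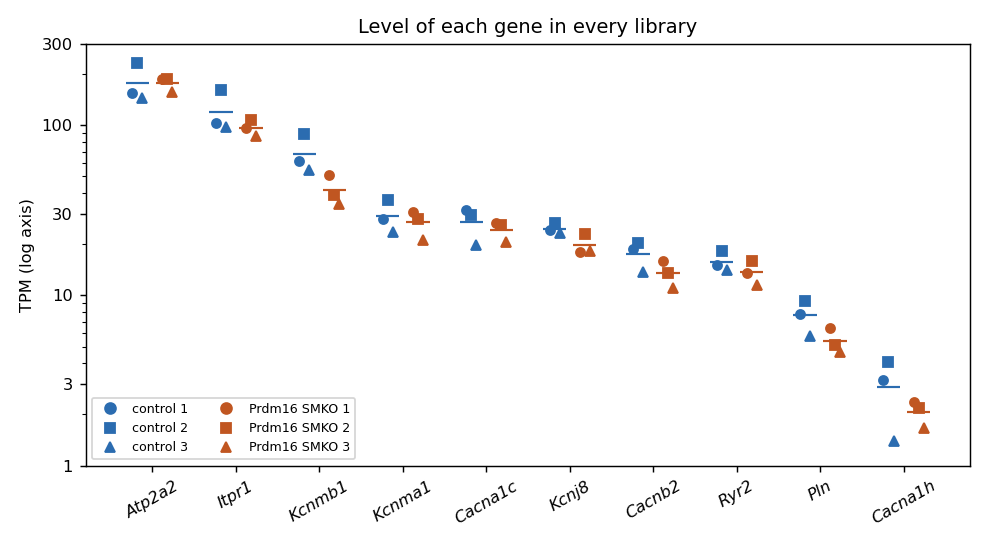
TPM of each gene on a log axis in the 6 libraries, ordered by mean level, with control libraries in blue, *Prdm16* SMKO libraries in orange, a marker shape for each replicate number and lines for the group means. *Atp2a2* and *Itpr1* are at the top and *Cacna1h* at the bottom, and the groups are separate in *Kcnmb1* and *Kcnj8* alone.

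Ranked among the tested genes of a library, the 10 genes ran from the 22.1 percentile for *Cacna1h* to the 97.5 percentile for *Atp2a2*. Mean TPM over the 6 libraries was 177 for *Atp2a2* and 109 for *Itpr1*, followed by 54.8 for *Kcnmb1*, 28.1 for *Kcnma1*, 25.7 for *Cacna1c*, 22.3 for *Kcnj8*, 15.5 for *Cacnb2*, 14.7 for *Ryr2*, 6.53 for *Pln* and 2.48 for *Cacna1h*. The ranges of neighbours in this order overlapped, except those of *Ryr2* and *Pln* and of *Pln* and *Cacna1h*. Within single libraries *Cacnb2* was above *Ryr2* in 3 of 6, *Kcnma1* above *Cacna1c* in 5 of 6 and *Cacna1c* above *Kcnj8* in 5 of 6, and each of the other neighbours kept its place in 6 of 6. The TPM of a gene adds up all of its transcripts, so the alternative exons of *Cacna1c* and *Kcnma1*, which have 22 and 31 protein-coding transcripts in GENCODE M21, are not resolved.

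Libraries of the same group differed from each other across most of these genes. Control replicate 2 held the highest value of 9 of the 10 genes, and *Prdm16* SMKO replicate 3 the lowest value of 6. The mean of the 12 markers of vascular smooth muscle cells (VSMCs) was also highest and lowest in these libraries, though *Des* and *Mustn1* were highest in *Prdm16* SMKO replicate 1 and *Myocd* in *Prdm16* SMKO replicate 2. The mean log2 level of the markers, relative to the mean of the 6 libraries, was −0.02, 0.44 and −0.16 in control replicates 1, 2 and 3 and 0.13, −0.04 and −0.35 in *Prdm16* SMKO replicates 1, 2 and 3, while that of the 10 genes was 0.15, 0.46 and −0.17, and −0.02, −0.06 and −0.35. The median log2 level of all tested genes was 3.09, 3.22 and 2.87 in control replicates 1, 2 and 3. In *Prdm16* SMKO replicates 1, 2 and 3 it was 3.18, 3.15 and 3.02. Control replicate 2 was thus the highest by this median of all genes too, and control replicate 3 the lowest. In *Prdm16* SMKO aortas 9 of the 12 markers were lower and 3 were higher (median log2 fold change −0.27). Their summed level ranged from 15950.3 to 26814 TPM in control and from 12458 to 18954.5 TPM in *Prdm16* SMKO libraries. In an aorta taken whole, fewer cells of a type and less RNA per cell cannot be told apart. With every library centred on the mean of the VSMC markers, 7 of the 10 genes were below 0, with a median of −0.13, where 21.7% of all genes were below 0 and the median of all genes was 0.19. Centring moves the log2 fold change of every gene by the same amount. It therefore cannot change the distance between the 10 genes and all genes.

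**Figure D2:**
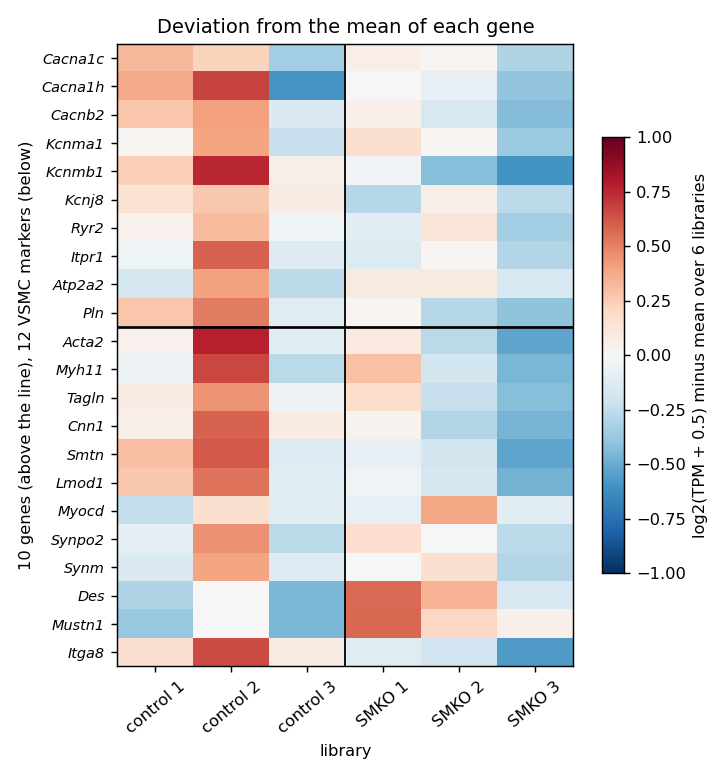
Log2(TPM + 0.5) of each gene minus its mean over the 6 libraries, for the 10 genes above the line and the 12 VSMC markers below it, with libraries in columns and red for values above the mean. Control replicate 2 is red in most rows, and *Prdm16* SMKO replicate 3 is blue in most.

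*Prdm16* itself, on chromosome 4, was at 33.4, 36.8 and 30.8 TPM in control and at 20.8, 27.7 and 14.8 TPM in *Prdm16* SMKO libraries, so the direction was that of the labels in every library. It was not called either (log2 fold change −0.70, limma, unadjusted p = 0.0126, Benjamini-Hochberg adjusted p = 0.376). None of the 10 genes lies on chromosome 4. The labelled tissue carried its defining markers: *Myh11*, the smooth muscle myosin heavy chain, ranged from 1488 to 3242 TPM and *Acta2*, smooth muscle actin, from 5256 to 13020 TPM. *Ryr2*, *Atp2a2*, *Pln* and *Cacna1c* are also genes of heart muscle. Of 17 cardiomyocyte markers *Myl3*, *Myl7*, *Nppb* and *Nkx2-5* were at 0 in all 6 libraries. *Myl4* was between 7.87 and 13.57 TPM and *Tnni3* between 1.23 and 4.79 TPM, with overlapping groups. *Myh6* was lower without overlap, at 0.92 to 2.09 TPM in control and 0.21 to 0.71 TPM in *Prdm16* SMKO libraries. *Actc1* was higher without overlap, at 0.83 to 5.1 TPM in control and 6.93 to 11.97 TPM in *Prdm16* SMKO libraries. The cardiomyocyte sum of 308 to 526 TPM in control and 608 to 766 TPM in *Prdm16* SMKO libraries was mainly *Tcap*, *Hspb7* and *Tnnt2*. *Tnnt2* was at 5.76 to 11.9 TPM in control and 304 to 346 TPM in *Prdm16* SMKO libraries. *Hspb7* was at 162 to 270 TPM in control and 69.5 to 92.3 TPM in *Prdm16* SMKO libraries (log2 fold change −1.29, limma, Benjamini-Hochberg adjusted p = 0.0558). Of the 8 tested cardiomyocyte markers 3 were lower and 5 higher. The part of these transcripts in the results was not tested. The share of all TPM that came from the 45S ribosomal RNA locus was 15.6% to 31.4% and that from mitochondrial genes 15.8% to 27.4%, with overlapping groups. The TPM of every other gene moves with these shares, and their part in the results was not tested beyond the rescaled fits among the alternatives.

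Among the genes of calcium entry, *Cacna1c* (ENSMUSG00000051331; chromosome 6 of GRCm38, 118587240 to 119196418) encodes the pore of the L-type channel, the main voltage-gated calcium channel of arteries. It was at 31.8, 29.6 and 19.8 TPM in control and at 26.5, 25.9 and 20.5 TPM in *Prdm16* SMKO libraries. The groups overlapped, with control replicate 3 the lowest of all 6, and the log2 fold change was −0.13 with a 95% interval of −0.61 to 0.34 (limma, Benjamini-Hochberg adjusted p = 0.951). It was −0.0069 without control replicate 1, −0.056 without control replicate 2, −0.34 without control replicate 3 and −0.019 when *Prdm16* SMKO replicate 3 was left out, and it turned to 0.035 when centred on VSMC markers. *Cacna1c* made up 61.7% to 70.5% of the TPM of the 10 pore genes of voltage-gated calcium channels in each library.

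*Cacna1h* (ENSMUSG00000024112; chromosome 17, 25374285 to 25433783) encodes a pore of the low-voltage T-type channel. It was the least expressed of the 10, at 3.20, 4.06 and 1.39 TPM in control and 2.36, 2.19 and 1.67 TPM in *Prdm16* SMKO libraries. All 3 *Prdm16* SMKO values lay inside the control range, and the interval of the log2 fold change, −1.08 to 0.46 around −0.31, was the widest of the 10 (limma, Benjamini-Hochberg adjusted p = 0.915). It was −0.20 without control replicate 1, −0.049 without control replicate 2, −0.68 without control replicate 3 and −0.19 when *Prdm16* SMKO replicate 3 was left out.

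*Cacnb2* (ENSMUSG00000057914; chromosome 2, 14603088 to 14987908) encodes a cytosolic beta subunit that brings the L-type pore to the membrane and tunes its gating. It was at 18.6, 20.4 and 13.8 TPM in control and at 15.8, 13.6 and 11.1 TPM in *Prdm16* SMKO libraries, with overlap through control replicate 3 alone. The log2 fold change was −0.36 with a 95% interval of −0.83 to 0.10 (limma, Benjamini-Hochberg adjusted p = 0.722), and it was −0.24 without *Prdm16* SMKO replicate 3 and −0.20 when centred on VSMC markers. *Cacnb2* was 44.6% ± 1.56 (SD, n = 3) of the summed TPM of the 4 beta subunit genes in control and 34.6% ± 2.05 (SD, n = 3) in *Prdm16* SMKO aortas. Every *Prdm16* SMKO share, 32.6%, 34.5% and 36.7%, was below every control share, 44.1%, 43.4% and 46.3%. These shares were looked at after the values were seen and were not tested. The other main member, *Cacnb3*, was at 16.6, 19.2 and 12.7 TPM in control and at 24.6, 18.7 and 15.1 TPM in *Prdm16* SMKO libraries.

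Among the potassium channel genes, *Kcnma1* (ENSMUSG00000063142; chromosome 14, 23289431 to 24014491) encodes the pore of the BK channel. It was at 28.1, 36.6 and 23.5 TPM in control and at 31.0, 28.2 and 21.3 TPM in *Prdm16* SMKO libraries, with overlapping groups. The log2 fold change was −0.12 with a 95% interval of −0.61 to 0.36 (limma, Benjamini-Hochberg adjusted p = 0.955), and it was −0.27 without control replicate 3, while its sign turned to 0.044 without control replicate 2, to 0.032 without *Prdm16* SMKO replicate 3 and to 0.046 when centred on VSMC markers.

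*Kcnmb1* (ENSMUSG00000020155; chromosome 11, 33963013 to 33973641) was at 61.6, 88.3 and 54.4 TPM in control and at 51.2, 38.9 and 34.4 TPM in *Prdm16* SMKO libraries. All 3 *Prdm16* SMKO values were under the lowest control value, by a small margin between control replicate 3 and *Prdm16* SMKO replicate 1. The log2 fold change was −0.70 with a standard error of 0.22 and a 95% interval of −1.20 to −0.19 (limma, unadjusted p = 0.0128, Benjamini-Hochberg adjusted p = 0.376). An exact two-sided permutation test gave p = 0.1, the smallest value that 3 against 3 libraries allow. Over the 19 alternative settings the log2 fold change ran from −0.86 to −0.50 and the adjusted p from 0.0877 to 0.640. *Kcnmb1* lies inside *Kcnip1*, a gene of the opposite strand whose mean was 0.218 TPM.

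*Kcnj8* (ENSMUSG00000030247; chromosome 6, 142564837 to 142571614) encodes the pore of the vascular KATP channel, which opens when cellular ATP is low. It was at 24.4, 26.6 and 23.2 TPM in control and at 18, 23.0 and 18.3 TPM in *Prdm16* SMKO libraries. The groups did not overlap, though control replicate 3 and *Prdm16* SMKO replicate 2 nearly met, and the log2 fold change was −0.32 with a 95% interval of −0.69 to 0.04 (limma, Benjamini-Hochberg adjusted p = 0.662). Centred on VSMC markers it was −0.15. *Kcnj8* also marks pericytes, and among 8 other pericyte markers 3 were lower and 5 were higher (median log2 fold change 0.05). Among all genes tested 12.8% had groups that did not overlap, and 5.76% with *Prdm16* SMKO lower, beside 2 of the 10 genes here.

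The stretches before the start sites of *Kcnmb1* and *Kcnj8* are shown because these are the genes whose groups did not overlap. Both run 5′ to 3′ over 250 bases up to the start of the RefSeq transcript on GRCm38.p6, with CpG dinucleotides in capitals, at chr11:33962763-33963012 on the plus strand and chr6:142571615-142571864 on the minus strand.
Kcnmb1: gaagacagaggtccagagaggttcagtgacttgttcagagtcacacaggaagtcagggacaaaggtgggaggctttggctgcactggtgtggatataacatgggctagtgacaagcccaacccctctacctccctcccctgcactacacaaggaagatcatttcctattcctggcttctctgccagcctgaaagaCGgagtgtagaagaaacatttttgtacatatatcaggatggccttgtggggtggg
Kcnj8: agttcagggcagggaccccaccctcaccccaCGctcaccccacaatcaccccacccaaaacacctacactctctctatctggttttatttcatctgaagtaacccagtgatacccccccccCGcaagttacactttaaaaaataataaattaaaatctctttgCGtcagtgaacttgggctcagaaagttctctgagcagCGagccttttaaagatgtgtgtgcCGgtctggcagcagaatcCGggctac

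RefSeq's table of 32851 start-site windows, each of 250 bases before and 50 after a start, held 10 windows for 7 of the 10 genes. *Kcnmb1* and *Kcnma1*, the beta subunit and the pore of the same channel, had unlike windows in this table. That of *Kcnmb1* held 1 CpG and 49.7% G and C, and that of *Kcnma1* held 36 CpGs and 78.0% G and C, where the median of all windows was 7 CpGs and 52.7%. *Kcnj8* held 9 CpGs, *Ryr2* 18 and *Pln* 1. The CArG box, the element of serum response factor that smooth muscle genes are known for, was searched as CCWWWWWWGG, with W for A or T. This strict form was in none of the 10 windows and in 1.63% of all windows. Looser forms and sites outside the windows were not searched. TATAAA, searched on both strands, was in the window of *Pln* and in 13.6% of all windows. GGGCGG, on either strand, was in 4 of the 10 windows, those of *Cacna1c*, *Cacnb2*, *Kcnma1* and *Ryr2*, and in 35.7% of all. CATTCC, on either strand, was in none of the 10 windows and in 14.7% of all. A match of letters is no evidence of a bound factor.

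Among the genes of store release, *Ryr2* (ENSMUSG00000021313; chromosome 13, 11553102 to 12106945) encodes a ryanodine receptor, the source of local calcium sparks. It was at 15.0, 18.3 and 14.1 TPM in control and at 13.6, 16.0 and 11.5 TPM in *Prdm16* SMKO libraries, with overlapping groups. The log2 fold change was −0.21 with a 95% interval of −0.62 to 0.21 (limma, Benjamini-Hochberg adjusted p = 0.879). It was −0.10 without control replicate 2, −0.32 without *Prdm16* SMKO replicate 2, −0.090 without *Prdm16* SMKO replicate 3 and −0.037 when centred on VSMC markers. *Ryr2* made up 91.2% to 99.3% of the TPM of the 3 ryanodine receptor genes in each library.

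*Itpr1* (ENSMUSG00000030102; chromosome 6, 108213096 to 108551109) encodes the inositol trisphosphate receptor type that prevails in smooth muscle. It was at 103, 161 and 97.1 TPM in control and at 96.6, 108 and 86.5 TPM in *Prdm16* SMKO libraries. Control replicate 2 stood above the other 5 libraries, and without it the log2 fold change was −0.05 in place of −0.28 (limma, Benjamini-Hochberg adjusted p = 0.844 with all libraries, 0.953 without it). Its 95% interval over all libraries was −0.76 to 0.20. *Itpr1* was 94.2% ± 1.26 (SD, n = 3) of the TPM of the 3 receptor genes in control and 90.0% ± 2.57 (SD, n = 3) in *Prdm16* SMKO aortas. Like those of *Cacnb2*, these shares were looked at after the values were seen and were not tested.

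Among the genes of store refilling, *Atp2a2* (ENSMUSG00000029467; chromosome 5, 122453513 to 122502225) encodes the calcium pump of the sarcoplasmic reticulum. It was at 155, 232 and 145 TPM in control and at 186, 186 and 157 TPM in *Prdm16* SMKO libraries, all 3 of the latter inside the control range. The log2 fold change of 0.02 had a 95% interval of −0.43 to 0.48 (limma, Benjamini-Hochberg adjusted p = 0.994), and its sign turned in 4 of the 6 fits that left out 1 library, while it was 0.23 without control replicate 2. *Atp2a3*, a SERCA pump typical of endothelial and blood cells, was at 33.9, 41.6 and 34.5 TPM in control and at 48.8, 66.2 and 41.2 TPM in *Prdm16* SMKO libraries (limma, unadjusted p = 0.0398, Benjamini-Hochberg adjusted p = 0.537). The share of *Atp2a2* among the 3 SERCA genes was 82.5% ± 2.02 (SD, n = 3) in control and 76.9% ± 2.81 (SD, n = 3) in *Prdm16* SMKO aortas. It too was looked at after the values were seen and was not tested. The 10 endothelial markers summed to 313 to 382 TPM in control and to 345, 575 and 386 TPM in *Prdm16* SMKO replicates 1, 2 and 3, and replicate 2, the highest, also held the most *Atp2a3*. The markers did not all rise in replicate 2. *Pecam1* (200 TPM) and *Vwf* (107 TPM) were highest there, *Kdr* (5.04 TPM) was lowest there and *Cldn5* (33.3 TPM) was below every control value. Replicate 1 had an endothelial sum inside the control range, yet more *Atp2a3* than any control library. Erythroid markers also had their highest sum, 19568 TPM, in replicate 2. The part of these cells in the shares was not tested.

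*Pln* (ENSMUSG00000038583; chromosome 10, 53337667 to 53345987) encodes phospholamban, the inhibitor of the SERCA pump. It was at 7.79, 9.31 and 5.80 TPM in control and at 6.46, 5.11 and 4.68 TPM in *Prdm16* SMKO libraries, with overlap between control replicate 3 and *Prdm16* SMKO replicate 1 alone. The log2 fold change was −0.45 with a 95% interval of −0.95 to 0.05 (limma, unadjusted p = 0.0739, Benjamini-Hochberg adjusted p = 0.655), and centred on VSMC markers it was −0.28. *Pln* lies within *Cep85l*, a gene of the opposite strand with a mean of 5.03 TPM. How strand was treated in counting is not given in the sources used here, so reads from a stretch that both genes share could be placed on either. The same holds for *Cacna1c* and *Dcp1b* (mean 7.6 TPM), for *Kcnma1* and 4930519K11Rik (4.84 TPM) and for *Cacnb2* and *Gm10849* (5.77 TPM), which overlap on opposite strands.

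**Figure D3:**
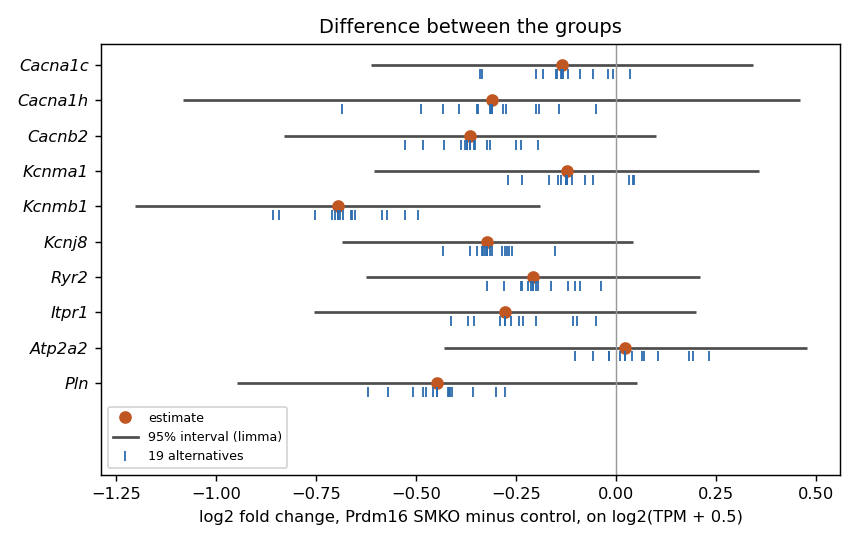
Log2 fold change of each gene (orange point) with its 95% interval from limma (grey line), on log2(TPM + 0.5), and its values in 19 alternative settings (blue ticks). The interval of *Kcnmb1*, −1.20 to −0.19, lies below 0 before any adjustment for the number of genes, and those of the other 9 include 0.

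The place of a gene in the ranking of a library's 15775 tested genes does not depend on a factor common to all its genes. The percentile of *Kcnmb1* was 91.3, 93.0 and 91.4 in control and 89.4, 85.7 and 85.0 in *Prdm16* SMKO libraries. That of *Kcnj8* was 77.1, 76.6 and 79.4 in control and 69.5, 75.2 and 71.9 in *Prdm16* SMKO libraries. In *Cacnb2* it was 71.0, 70.7 and 67.7 against 66.3, 62.4 and 59.5, and in *Pln* 49.4, 51.1 and 46.4 against 43.2, 38.8 and 39.2. In these 4 of the 10 genes all 3 *Prdm16* SMKO ranks were under the lowest control rank, beside 12.4% of all genes tested. *Atp2a2* stayed between 96.8 and 97.5 in all 6 libraries.

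The ratio of a pair of genes within a library is also free of such a factor, and 5 ratios of partners or alternatives were compared. These 5 were chosen with earlier results of these data known, which their p-values do not take into account. *Kcnmb1* was 2.20, 2.41 and 2.31 times *Kcnma1* in control and 1.65, 1.38 and 1.62 times in *Prdm16* SMKO libraries. On the log2 scale the ratio averaged 1.19 ± 0.07 (SD, n = 3) in control and 0.62 ± 0.14 (SD, n = 3) in *Prdm16* SMKO aortas, a difference of −0.57 that ran from −0.62 to −0.49 with each library left out in turn. *Pln* was 0.0504, 0.0402 and 0.0399 times *Atp2a2* in control and 0.0347, 0.0274 and 0.0297 times in *Prdm16* SMKO libraries, a log2 difference of −0.47 with a range of −0.55 to −0.36. In both ratios the *Prdm16* SMKO values were all under the lowest control value (exact two-sided permutation test, p = 0.1, the smallest possible, and 0.25 after Benjamini-Hochberg adjustment over the 5 ratios). With 3 against 3 libraries no ratio could reach a p under 0.05 in this test, so it cannot decide whether they differ.

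The other ratios overlapped between the groups. *Cacnb2* to *Cacna1c* was 0.586, 0.688 and 0.693 in control and 0.597, 0.524 and 0.543 in *Prdm16* SMKO libraries, a log2 difference of −0.23 (exact permutation p = 0.2, adjusted 0.333). *Ryr2* to *Itpr1* differed by 0.07 (exact permutation p = 0.8, adjusted 0.8) and *Cacna1h* to *Cacna1c* by −0.18 (exact permutation p = 0.6, adjusted 0.75) on the log2 scale. After the values were seen, 3 further pairs were taken up, without a test. The first was *Kcnj8* and *Abcc9*, the pore and the regulatory sulfonylurea receptor subunit of the vascular KATP channel. *Abcc9* was at 59.1, 76.2 and 57.7 TPM in control and at 84.4, 93.0 and 70.1 TPM in *Prdm16* SMKO libraries (limma, Benjamini-Hochberg adjusted p = 0.648). The ratio of *Kcnj8* to *Abcc9* was 0.412, 0.349 and 0.403 in control and 0.213, 0.247 and 0.262 in *Prdm16* SMKO libraries, with no overlap. *Kcnj8* to *Kcnj11*, the other KATP pore, went the other way and overlapped, at 6.71, 8.14 and 8.32 in control and 7.86, 13.4 and 12.5 in *Prdm16* SMKO libraries. *Atp2a3* to *Atp2a2* was 0.219, 0.180 and 0.237 in control and 0.262, 0.355 and 0.262 in *Prdm16* SMKO libraries, with no overlap.

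**Figure D4:**
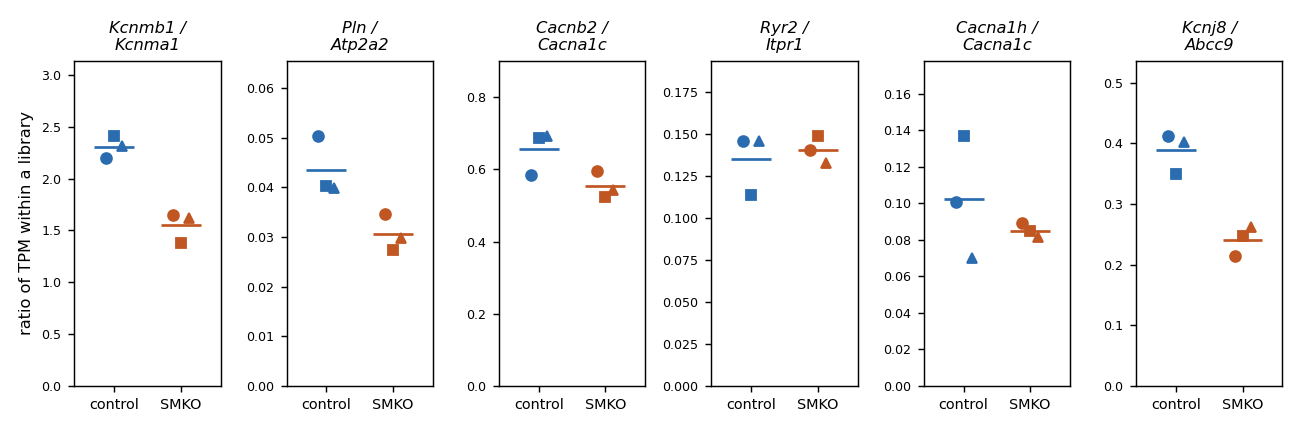
Ratio of the TPM of a pair of genes within each library, with control in blue, *Prdm16* SMKO in orange, a marker shape for each replicate number and lines for the group means, on axes that start at 0. The groups are separate in *Kcnmb1* to *Kcnma1*, *Pln* to *Atp2a2* and *Kcnj8* to *Abcc9*, the last of which was chosen after its values were seen.

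Other genes of calcium handling and ion transport were read from 9 lists by function, which held 168 genes of the table, 115 of them above the expression minimum. Of the 115 genes 42 were lower and 73 higher in *Prdm16* SMKO aortas (median log2 fold change 0.09). By limma's adjusted p 0 of the 115 were called, and at an unadjusted p under 0.05 there were 5 lower and 12 higher, together 17, beside 3.85% lower, 4.88% higher and 8.74% together of all genes tested. Groups did not overlap in 5 lower and 10 higher genes, beside 5.76% and 7.02% of all genes.

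The 3 lists of potassium channel genes, with 4, 19 and 8 genes tested, held 10 of these 17. Among 19 tested voltage-gated potassium channel genes, 2 were lower and 5 higher at an unadjusted p under 0.05, where all genes gave 3.85% and 4.88%. *Kcnh2*, the ERG-type delayed rectifier pore, was at 91.6, 110 and 68.1 TPM in control and at 58.9, 57.9 and 43.7 TPM in *Prdm16* SMKO libraries, with no overlap (log2 fold change −0.73, limma, Benjamini-Hochberg adjusted p = 0.303). *Kcnc4*, the pore of a rapidly inactivating A-type channel, was at 4.61, 8.68 and 3.36 TPM in control and at 24.1, 12.1 and 14.9 TPM in *Prdm16* SMKO libraries (log2 fold change 1.57, limma, Benjamini-Hochberg adjusted p = 0.141). Median-of-ratios scaling gave *Kcnh2* an adjusted p of 0.0451, centring on VSMC markers gave *Kcnc4* 0.0337, and array weights, which gave control replicate 1 a weight of 10.1 and no other library more than 0.954, called 6 of the 115, *Kcnc4*, *Kcnh2*, *Kcnip3*, *Kcnj12* and *Kcnn4* among them. *Kcnab1*, a beta subunit and the most abundant gene of this list, was at 111 ± 14.9 and 106 ± 12.6 TPM (SD, n = 3 each).

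*Kcnn4*, the intermediate-conductance calcium-activated channel, was at 1.93, 2.68 and 2.24 TPM in control and at 4.59, 6.91 and 3.79 TPM in *Prdm16* SMKO libraries, without overlap (log2 fold change 0.98, limma, Benjamini-Hochberg adjusted p = 0.234). *Kcnj12*, an inward rectifier pore, was at 2.54 ± 0.515 and 5.14 ± 1.25 TPM (n = 3 each, SD; by limma, Benjamini-Hochberg adjusted p = 0.271), and *Kcnj11* at 3.23 ± 0.421 and 1.83 ± 0.420 TPM (limma, Benjamini-Hochberg adjusted p = 0.421). *Kcnab2*, a beta subunit common in neurons, was at 4.88 TPM in *Prdm16* SMKO replicate 1 and between 0.31 and 1.59 TPM elsewhere. *Kcnmb4*, the neuronal partner of *Kcnma1*, was at 8.42 TPM in that library and between 0.08 and 1.52 TPM elsewhere, and so *Kcnmb1* made up 85.7% of the BK beta subunits there and 98.2% to 99.9% in the other 5. The 10 neuron markers summed to 770 TPM in *Prdm16* SMKO replicate 1, with *Th* at 67.6 TPM, and to between 41.6 and 210 TPM in the other libraries, and their part in these values was not tested.

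**Figure D5:**
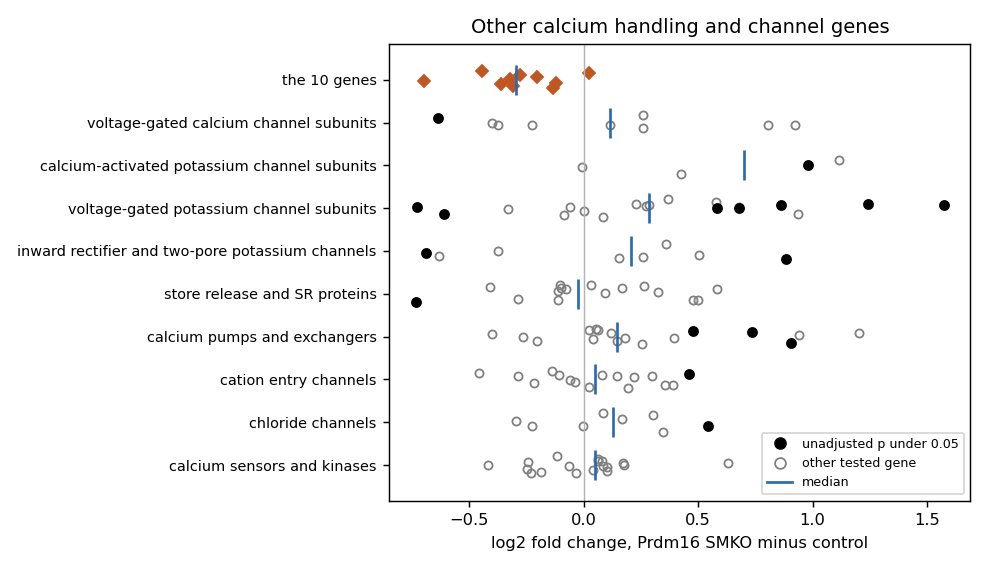
Log2 fold change between *Prdm16* SMKO and control aortas for the 10 genes (orange diamonds) and for the tested genes of 9 functional lists (circles, filled at an unadjusted p under 0.05), with blue lines at the medians. The 10 genes have a median of −0.29, and 8 of the 9 lists have a median above 0.

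The other lists held 7 of the 17 genes. *Cacna1d*, another L-type pore, was the 1 voltage-gated calcium channel gene at an unadjusted p under 0.05, at 2.80 ± 0.471 and 1.65 ± 0.523 TPM (n = 3 each, SD; by limma, Benjamini-Hochberg adjusted p = 0.531), while *Cacna2d1*, the accessory subunit with the highest level, was at 43.1 ± 7.42 and 36.7 ± 5.07 TPM. Of 16 store and sarcoplasmic reticulum genes 1, *Stac*, an adaptor of calcium channels, was under 0.05, at 9.07 ± 1.05 and 5.50 ± 2.32 TPM (limma, Benjamini-Hochberg adjusted p = 0.452), and *Calr*, which encodes the store protein calreticulin, was at 436 ± 88.1 and 354 ± 37.5 TPM. Of 17 pump and exchanger genes 3 were under 0.05, all higher: *Atp2a3*, *Atp2b2*, a plasma membrane calcium pump, at 1.37 ± 0.341 and 2.66 ± 0.918 TPM, and *Slc8a3*, a sodium-calcium exchanger, at 0.330 ± 0.0872 and 1.07 ± 0.345 TPM. *Stim2*, a store calcium sensor, was at 7.35 ± 0.848 and 10.4 ± 2.40 TPM (limma, Benjamini-Hochberg adjusted p = 0.565), and *Clcn6*, an endosomal chloride-proton exchanger, at 4.68 ± 0.459 and 7.05 ± 0.577 TPM (limma, Benjamini-Hochberg adjusted p = 0.376), each the 1 gene of its list under 0.05. None of the 18 calcium sensors and kinases was under 0.05. *Fxyd1*, *Pkd1*, *Ano6* and *Cald1*, the most abundant genes of the pump, cation entry, chloride and sensor lists, had log2 fold changes of −0.40, −0.22, −0.23 and −0.12, and their groups overlapped.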

How the data were processed

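The authors deposited TPM values per gene and library, rounded to 2 decimals. The submitters' processing notes name cutadapt 2.3, STAR 2.7.8a, RSEM 1.3.3 and GRCm38, with no parameters. Per the labels, polyadenylated RNA was sequenced in paired reads of 151 bp, with an average of 40 M pairs. The annotation and the use of strand are not given in the sources used here. TPM keeps no depth, so no counting error could be given. Columns were joined to mice by the sample names in the labels, and 0 pairs of libraries were identical.

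Expression was compared in limma 3.58.1 (R 4.3.3) on log2(TPM + 0.5), on the 15775 genes whose mean reached 0.5 TPM, with variances following a trend, two-sided p-values and Benjamini-Hochberg adjustment over all genes. The sources give no litter, day or batch, so p-values measure the spread between these samples, part of which may be technical. The fit was tested on simulated data. Ratios were tested by exact two-sided permutation over the libraries. Positions are from GENCODE M21 on GRCm38 and start-site sequences from RefSeq on GRCm38.p6. Tables were made in Python 3.11.15 with pandas 2.3.3 and scipy 1.17.1, and figures with matplotlib 3.10.9.

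The 10 genes, the lists, the ratios and the tests were chosen with earlier results of these data known. From the functional lists the text names any called gene, the most abundant gene of each list and up to 2 with the largest change at an unadjusted p under 0.05. Marker lists of 13 cell types were read in the same fit. *Kcnh2*, *Kcnip3*, *Kcnmb4*, *Cacnb3*, *Atp2a3*, the overlapping genes and single marker genes were named after their values were seen. Samples were not paired by replicate number, except in the replicate block among the alternatives. Alternatives were pseudocounts of 0.1 and 1, other expression minimums, scalings and variance estimates, a replicate block, and each library left out. The values of 1 gene of the functional lists are not reported here.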

Additional observations from a re-analysis of the deposited data

How the results depend on the processing

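None of the 10 genes was called in any of the 19 alternatives, and their log2 fold changes kept their direction in 182 of 190 values. With median-of-ratios scaling, quantile normalization, array weights, or without mitochondrial and 45S genes, 4 of the 10 had an unadjusted p under 0.05 by limma. These were *Kcnmb1*, *Cacnb2*, *Kcnj8* and *Pln*. Of all genes, 2152 of 15763, 2005 of 15775, 3177 of 15775 and 2138 of 17756 were under 0.05 in these fits. The count among the 10 was 1 to 4 without 1 library, 3 with the replicate block and 1 in the other alternatives. The sign turned in *Cacna1c* when centred on VSMC markers (0.035), in *Kcnma1* in that setting (0.046) and without control replicate 2 (0.044) or *Prdm16* SMKO replicate 3 (0.032), and in *Atp2a2* without control replicate 1 (−0.058), control replicate 3 (−0.10), *Prdm16* SMKO replicate 1 (−0.017) or its replicate 2 (−0.017). Leaving out 1 library at a time gave *Kcnma1* −0.27 to 0.044 and *Atp2a2* −0.10 to 0.23. The log2 difference of *Ryr2* to *Itpr1* then ran from −0.051 to 0.13 and that of *Cacna1h* to *Cacna1c* from −0.34 to 0.0072, both turning without control replicate 2. Of all genes 56 were called, 29 higher and 27 lower, against 10 with no expression minimum, 153 (60 higher, 93 lower) with median-of-ratios scaling, 129 (46 and 83) with quantile normalization, 123 (55 and 68) without mitochondrial and 45S genes, 79 (50 and 29) when centred on VSMC markers, 33 with no trend, 112 with robust variances, 494 with array weights, and 5 (without control replicate 2) to 61 without 1 library. Of the 115 other genes of calcium handling, 1 was called with median-of-ratios scaling, 1 when centred on VSMC markers and 6 with array weights. The causes were not tested.

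The replicate block gave 4 called genes and no call among the 10. Deviations of libraries with the same number correlated at −0.13, −0.11 and 0.02, and those with different numbers at −0.17 to 0.24. Being deviations from means of 3 libraries, they cannot show whether samples shared a litter, day or batch. TPM keeps no read numbers, which leaves the precision of low values such as those of *Cacna1h* unknown.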

Other observations

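The libraries also differed in markers of other cell types of the aorta. By the median log2 fold change of the tested markers, macrophage (0.73; 6 of 10 higher at an unadjusted p under 0.05 by limma), adipocyte (0.91; 2 of 8), neuron (0.90; 0 of 10), Schwann cell (0.93; 1 of 8), erythroid (1.83; 5 of 5) and T and B cell markers (0.67; 0 of 3) were above 0, where 4.88% of all genes were higher and 3.85% lower at that threshold. So were endothelial (0.34; 1 of 10), skeletal muscle (0.49; 0 of 9) and fibroblast markers (0.08; 0 of 10), with brown adipocyte markers at −0.14 (0 of 5). In these 10 lists 1 endothelial marker, *Cldn5*, and 1 fibroblast marker, *Col1a1*, were lower at an unadjusted p under 0.05 by limma, both with a log2 fold change of −0.54 and without overlap. No marker of these 10 lists was called, and of the 8 tested cardiomyocyte markers, with a median of 0.45, *Tnnt2* was. Erythroid markers summed to 19568 TPM in *Prdm16* SMKO replicate 2 and to 1143 to 4947 TPM in the others, and adipocyte markers to 4107 TPM in *Prdm16* SMKO replicate 3 and to 801 to 1649 TPM in the others.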
